A study of Rattus norvegicus with 18 samples.

Results

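The genes of the complement system were read in whole liver RNA of 18 male Wistar rats. They were 34 gene symbols of components, receptors and regulators, and they stood on 36 of the 32623 rows of each expression table, because C4a and Cfb each had 2 rows. Of those rows, 34 had enough counts to be tested, and Mbl2 and Cd55 did not. The 6 control rats ate standard chow with normal water for 12 weeks. The 6 rats with non-alcoholic steatohepatitis (NASH) inhaled the liver toxin carbon tetrachloride (CCl4) and drank phenobarbital in their water for 6 weeks, followed by 4 weeks on a high-fat, high-cholesterol diet. The 6 rats given a longer protocol meant to bring NASH with cirrhosis (NASH-CH) received CCl4 and phenobarbital for 24 weeks, with that diet during the last 16 weeks. No control received CCl4, phenobarbital or the diet, and the groups were studied after different times. Diet, toxin, phenobarbital, time on the protocol, age and disease therefore cannot be told apart. The sample labels describe the schedule more briefly, as CCl4 and the diet for 10 or 24 weeks.

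Complement is a cascade of plasma proteins that tags microbes and damaged cells, attracts leukocytes and can pierce membranes. It starts by the classical pathway (C1q with the proteases C1r and C1s), the lectin pathway (mannose-binding lectins with the MASP proteases) or the alternative pathway (factors B and D and properdin), and all of these meet at C3 and go on to the terminal proteins C5 to C9. Hepatocytes make most of the circulating proteins, whereas the C1q chains and properdin come chiefly from macrophages and other myeloid cells, and regulators keep the cascade off the body's own cells.

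Library totals were 19498534 to 27174015 counts in control, 20827770 to 29491947 in NASH and 44680344 to 60117822 in NASH-CH rats. The NASH-CH libraries were all deeper than the others. Levels are given in CPM, counts relative to a library's total after trimmed-mean scaling (TMM), and compared only between rats, since gene lengths were not used. A level of 3 counts, the limit that a count of 0 allows, lay at 0.108 to 0.187 CPM in control, 0.0948 to 0.134 in NASH and 0.039 to 0.0655 in NASH-CH libraries, and covers counting error only. The hepatocyte markers summed to 137360 to 196870 CPM in control, 99487 to 161330 in NASH and 92933 to 150900 in NASH-CH rats. Alb alone was at 90379 to 131560, 57617 to 94783 and 41374 to 91945 CPM, so the sum follows that gene above all. Of the 10 markers, Apoa1 was called lower in NASH, and Alb, Apoa1 and Ttr in NASH-CH. None was called higher, and the median log2 difference from control was -0.16 in NASH and -0.04 in NASH-CH. In whole liver, fewer cells of a type and less RNA per cell cannot be told apart. NASH-CH rat 5 stood apart, with the lowest hepatocyte marker sum of all rats and a cholangiocyte marker sum of 33.4 CPM against at most 12.2 in the other NASH-CH rats.

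More complement genes differed from control in NASH-CH than in NASH livers, as did more of all tested genes, and they did so in both directions. At an adjusted p below 0.05 in limma, 1 of 34 rows differed in NASH (2.94%), where 3.12% of all 12904 tested genes did. In NASH-CH, 9 of 34 differed (26.5%), where 17% of all genes did. 6 of them were called higher (17.6% of rows, against 8.38% of all genes), namely Clu, C7, C4b, C5, C2 and Serping1, and 3 lower (8.82%, against 8.6%), namely C1qb, C1qc and Cfp. Between NASH-CH and NASH, 2 of 34 rows differed (5.88%, against 4.2%), C7 upward and Cfd downward, where 1.81% of all genes were called higher and 2.39% lower. In NASH against control, 1.58% of all genes were called higher and 1.54% lower, and the single complement row, Clu, was higher. The NASH and NASH-CH comparisons share their control rats. With the NASH-CH counts thinned at random to the median total of the other 12 libraries, the same 9 complement rows were called against control and the same 2 against NASH.

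The split in direction depended on the scaling. With library totals alone in place of the trimmed mean, the median of all genes moved from 0.01 to 0.27 on the log2 scale in NASH-CH against control. Under that scaling 14 complement rows were called, all of them higher (where 25.3% of all genes were called in either direction). The share of all genes called higher was not counted there, so this direction cannot be set against that of all genes. Among the 34 rows, the calls of C1qb, C1qc and Cfp were then lost, at log2 differences of -0.16, -0.17 and -0.30, so their lower level is one relative to the bulk of the transcriptome.

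**Figure D1:**
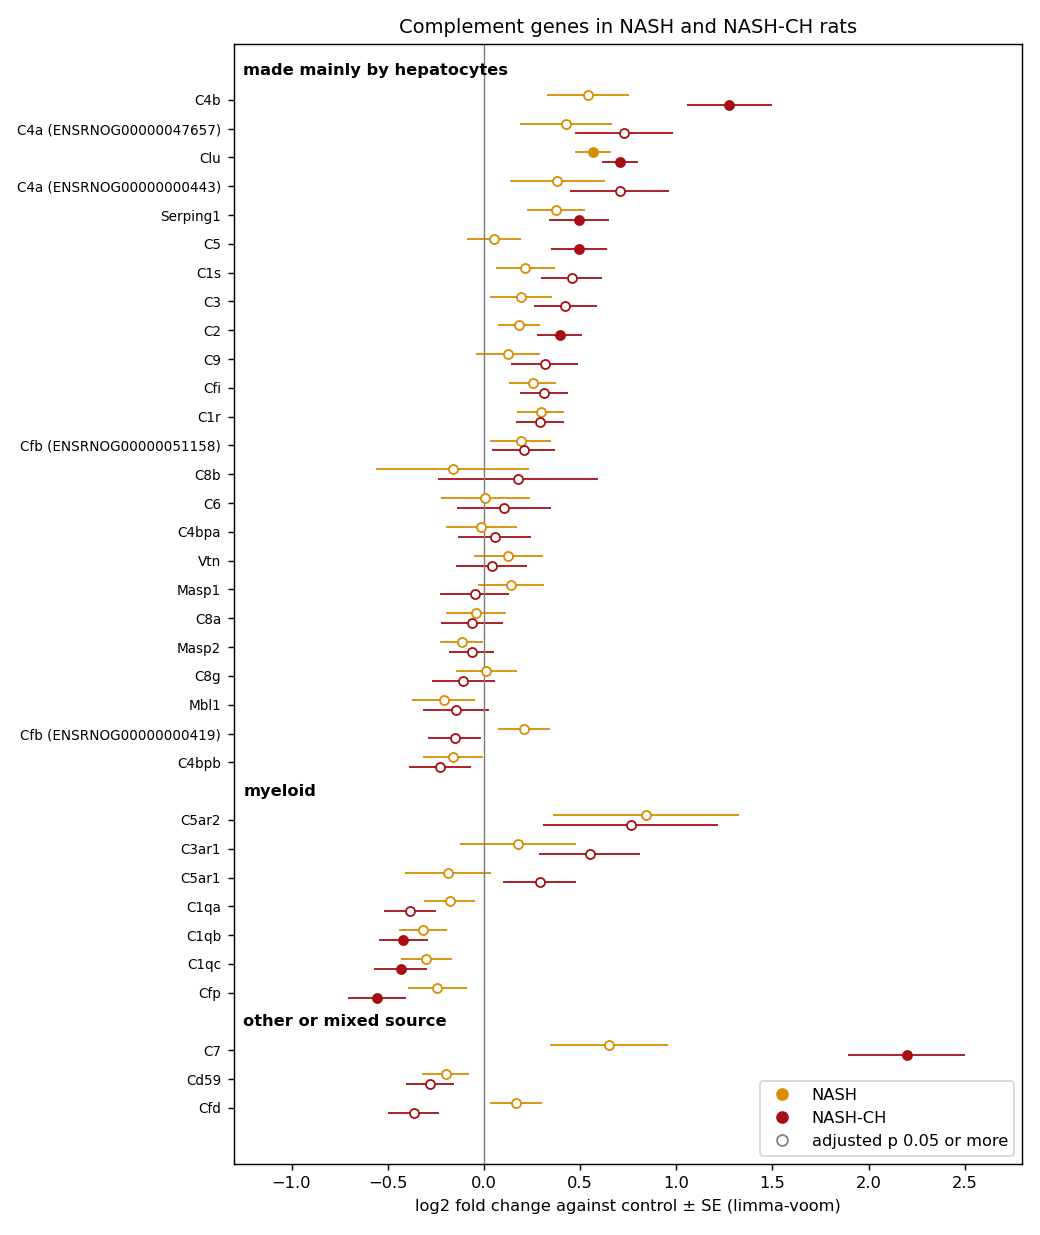
Log2 fold change ± SE of the 34 tested complement rows in NASH and in NASH-CH against control, ordered by the usual source of the protein, with filled points for an adjusted p below 0.05. The NASH-CH points of C7 (2.20) and C4b (1.28) lie farthest to the right, while C1qb, C1qc and Cfp lie to the left of 0.

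By usual source, the 24 tested rows of hepatocyte-made proteins had 5 calls in NASH-CH against control (20.8%, where 17% of all genes were called), all higher (8.38% of all genes), and 17 rows above 0, with a median log2 difference of 0.25 against 0.01 over all genes. The 7 rows of myeloid genes had 3 calls (42.9%), all lower (8.6% of all genes), with a median of -0.38. The remaining call was C7, among the 3 tested rows of other or mixed source. In NASH, the hepatocyte-made rows had 1 call and a median of 0.16, and the myeloid rows no call and a median of -0.19. Over all rows the number past an unadjusted p of 0.05 was 7 in NASH (20.6%, against 21.5% of all genes) and 18 in NASH-CH (52.9%, against 31.7%).

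Groups without any overlap were counted as well. Among the tested complement rows, only Clu separated every NASH rat from every control (2.94% of rows, against 3.16% of all genes, 1.77% upward and 1.39% downward). Clu, C4b and C7 separated every NASH-CH rat from every control, all upward (8.82%, against 7.11% of all genes, 3.64% upward and 3.46% downward). C7 and Cfd separated NASH-CH from NASH rats (5.88%, against 3.46%, 1.36% upward and 2.1% downward).

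**Figure D2:**
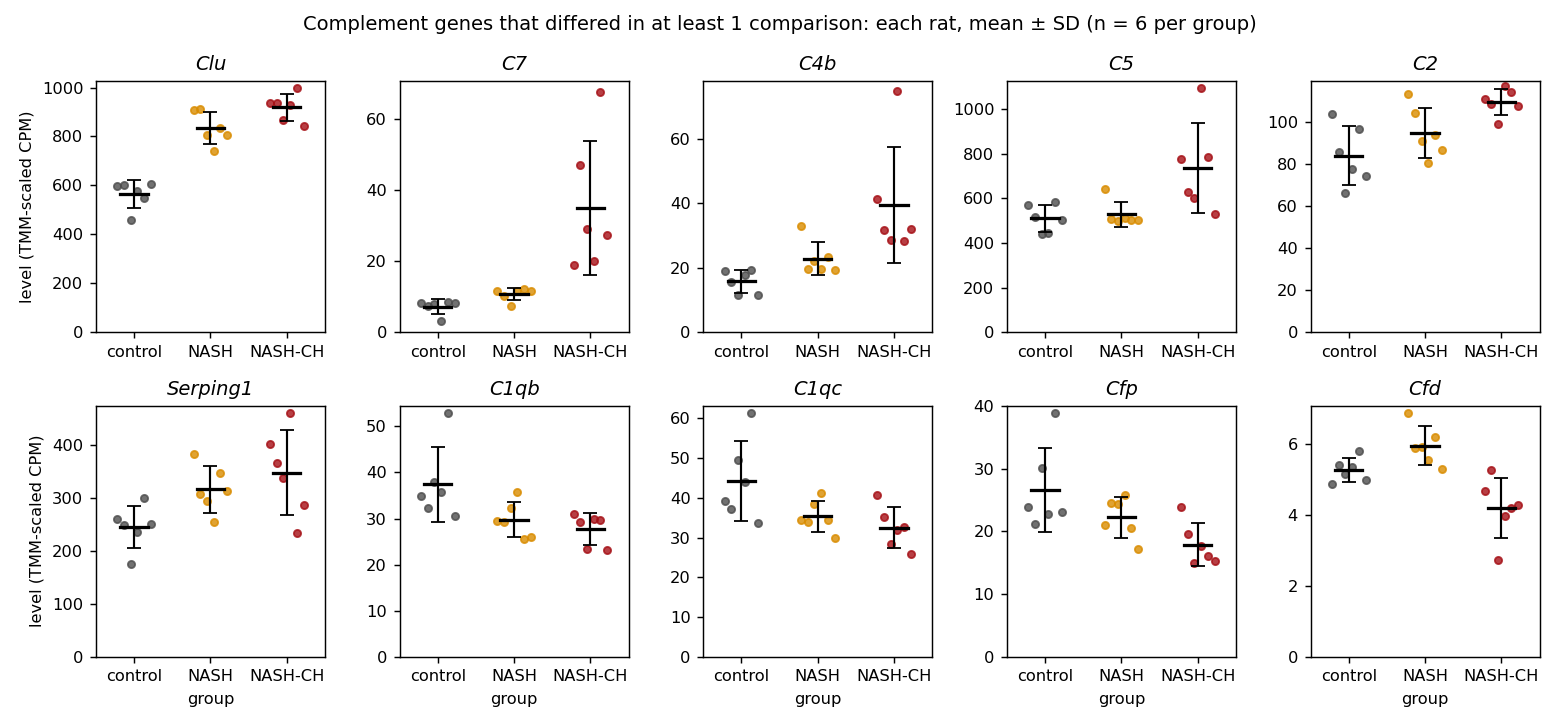
Level in CPM of the 10 complement genes called in at least 1 comparison, for each of the 18 rats, with the group mean ± SD (n = 6 per group); each panel has its own linear scale from 0. All NASH and NASH-CH rats lie above all controls for Clu, NASH-CH rats lie above every other rat for C7, and they lie below every NASH rat for Cfd.

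The counts of the complement rows added up to 1.48 to 2.11% of all counts in control, 2.11 to 2.75% in NASH and 2.37 to 3.79% in NASH-CH livers. On the trimmed-mean scale the control rats had a sum of 20865 ± 3540.8 CPM, the NASH rats 23508 ± 3052.8 and the NASH-CH rats 26494 ± 5779.4 (SD, n = 6 each), with overlapping ranges. C3 alone made up 44.3 to 53.4% of the complement counts over the 18 rats, so the sum follows that gene above all.

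C1q, the recognition unit of the classical pathway, is built from the chains encoded by C1qa, C1qb and C1qc, which resident macrophages of the liver transcribe together. C1qb was at 30.5 to 53.0 CPM in control (median 35.3), 25.6 to 35.8 in NASH (29.4) and 23.2 to 30.9 in NASH-CH rats (29.5). C1qc was at 33.6 to 61.4 CPM in control (41.6), 30.0 to 41.1 in NASH (34.4) and 25.9 to 40.6 in NASH-CH rats (32.3). C1qa was at 34.3 to 61.8 CPM in control (42.6), 33.1 to 49.2 in NASH (38.5) and 28.6 to 41.6 in NASH-CH rats (35.2). The chains differed from control in the same direction, with control rat 5 high in all of them, and the groups overlapped, although 5 of the 6 NASH-CH rats lay below every control for C1qb.

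In NASH-CH against control, C1qb fell by 0.42 (SE 0.128, adjusted p = 0.0318) and C1qc fell by 0.43 (SE 0.1375, adjusted p = 0.038) on the log2 scale. The C1qa difference was -0.38 (SE 0.137, adjusted p = 0.0607). It passed without control rat 6 (-0.46, adjusted p = 0.0242) or NASH-CH rat 1 (-0.44, adjusted p = 0.0381), and with DESeq2 (adjusted p = 0.0287), no filter on low counts (0.0446), sample quality weights (0.046) or a replicate block (0.0495). The log2 ratio of C1qb to C1qa counts differed by -0.036 between NASH-CH and control (exact permutation p = 0.489), and that of C1qc to C1qa by -0.049 (p = 0.173). Between NASH and control these ratios differed by -0.138 and -0.12 (exact permutation p = 0.0325 and 0.00433, adjusted 0.166 and 0.0552). In NASH the differences were -0.18 for C1qa, -0.32 for C1qb and -0.30 for C1qc, with adjusted p from 0.154 to 0.468, and that of C1qa turned to 0.046 with library totals alone as the scale. Both calls lay near the threshold: with log2 differences of -0.42 to -0.32, C1qb was lost without control rat 3 or 5 or NASH-CH rat 3 or 6 (adjusted p 0.0564 to 0.0748), and, with differences of -0.43 to -0.34, C1qc was lost without control rat 3, 4 or 5 or NASH-CH rat 3, 4 or 6 (0.058 to 0.0918).

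Several, but not all, tested markers of macrophages moved in the same direction as the C1q genes. Of 11 tested markers, 6 were lower in NASH-CH than in control (Cd163, Clec4f, Marco, Vsig4, Csf1r and Cd5l) and 1 was higher (Lyz2), and their sum was 376 to 625 CPM in control, 289 to 399 in NASH and 257 to 391 in NASH-CH rats. On tissue sections, the study reported more macrophages positive for CD68 or CD163 protein in NASH-CH than in control livers. The part of macrophage number or state in the C1q levels was not tested. When the C1q counts were divided by those of Csf1r, the receptor that macrophages need for survival, the log2 ratio differed between NASH-CH and control by 0.078 for C1qa, 0.042 for C1qb and 0.029 for C1qc (exact permutation p = 0.522, 0.704 and 0.831), beside an SD over all rats of 0.172 to 0.207. Over Clec4f, a marker of Kupffer cells, the differences were 0.197, 0.161 and 0.148 (exact permutation p = 0.160, 0.178 and 0.208). Csf1r and Clec4f were themselves among the markers called lower in NASH-CH. Other markers of the list were not, such as Cd68 (log2 difference 0.15, adjusted p = 0.49) and Lyz2 (1.58, adjusted p = 0.000659), and ratios over those were not computed.

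**Figure D3:**
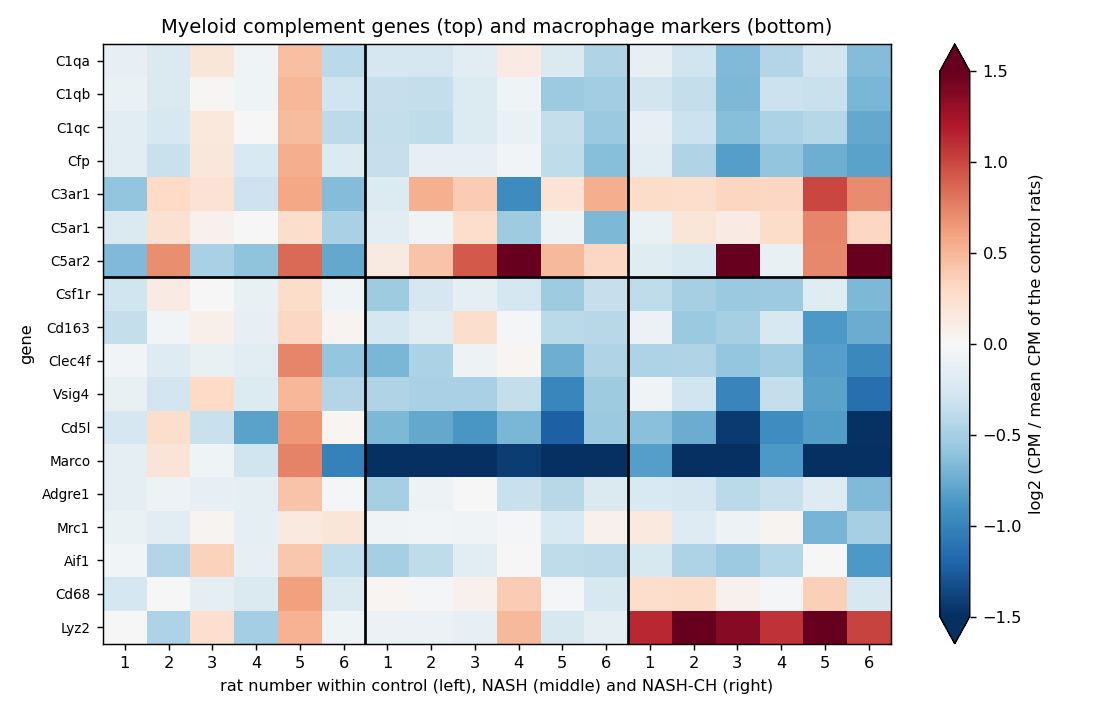
Log2 of the CPM of each rat over the control mean, in colour, for the 7 tested myeloid complement genes and the 11 tested macrophage markers (rows) in the 18 rats (columns, by group). C1qa, C1qb, C1qc and Cfp lie below the control mean in all 6 NASH-CH rats, as do Cd163, Clec4f, Marco and Csf1r, whereas C3ar1 lies above it in all 6.

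Properdin, encoded by Cfp, stabilises the alternative C3 convertase and is stored in neutrophils as well as made by macrophages. Its level was 21.1 to 38.8 CPM in control (median 23.5), 17.1 to 25.8 in NASH (22.7) and 15.01 to 23.9 in NASH-CH rats (16.9). 5 of the 6 NASH-CH rats lay below every control, and the NASH rats lay across both ranges. Cfp fell by 0.56 on the log2 scale in NASH-CH (SE 0.151, adjusted p = 0.0178), a call kept in all 18 fits that left out 1 rat, while the NASH difference was -0.24 (adjusted p = 0.375). The ratio of Cfp to Csf1r counts differed by -0.10 between NASH-CH and control (exact permutation p = 0.528). Neutrophil markers were near the floor, with 1 of 6 tested, a sum of at most 6.23 CPM in any rat, and Mpo and Elane at a median of 0 over the 18 rats.

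The DNA in front of C1qa, C1qb and Cfp is shown because the levels of these myeloid genes had differences of the same sign in NASH-CH. Each sequence is the 250 bases before the transcript start, on the gene's own strand from 5′ to 3′, from RefSeq on GRCr8, a later build than the Rnor_6.0 used for the counts. Capitals mark GAGGAA on either strand, a form of the site bound by PU.1, a factor that macrophage genes need.

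C1qa (chr5:154419934-154420183, minus strand): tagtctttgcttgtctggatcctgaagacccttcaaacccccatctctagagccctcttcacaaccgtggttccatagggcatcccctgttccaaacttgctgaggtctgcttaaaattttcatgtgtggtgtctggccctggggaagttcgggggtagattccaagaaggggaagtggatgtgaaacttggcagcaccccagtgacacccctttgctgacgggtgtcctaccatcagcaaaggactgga
C1qb (chr5:154407828-154408077, minus strand): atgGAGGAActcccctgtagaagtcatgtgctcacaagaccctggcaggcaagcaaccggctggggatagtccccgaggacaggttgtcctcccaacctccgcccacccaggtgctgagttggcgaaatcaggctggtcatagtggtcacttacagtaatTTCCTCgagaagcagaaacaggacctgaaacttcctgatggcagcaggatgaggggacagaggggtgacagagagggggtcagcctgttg
Cfp (chrX:3715301-3715550, plus strand): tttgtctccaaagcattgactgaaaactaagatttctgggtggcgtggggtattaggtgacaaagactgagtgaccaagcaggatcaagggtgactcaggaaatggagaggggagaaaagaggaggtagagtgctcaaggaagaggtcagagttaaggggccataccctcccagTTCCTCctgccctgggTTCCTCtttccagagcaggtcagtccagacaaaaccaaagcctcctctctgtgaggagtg

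The letters GAGGAA occurred 2 times in the C1qb and Cfp windows and not in that of C1qa. Other forms of the PU.1 site were not searched. They were found in 3 of the 5 myeloid complement promoters on file (C1qb, Cfp and C5ar2), in 4 of the 15 hepatocyte-made ones (C1r, C4b, C4bpb and Mbl1) and in 23.3% of all 33469 windows of that length. Promoters were on file for 22 of the 34 symbols. A match is a description of letters and not a measured site.

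The proteases C1r and C1s complete the C1 complex, and C2 is the protease of the classical and lectin C3 convertase. C2 was at 66.4 to 103.8 CPM in control (median 81.6), 80.7 to 113.5 in NASH (92.6) and 99.05 to 117.1 in NASH-CH rats (109.9). NASH-CH rats lay at the top of the control range or above it. C2 rose by 0.39 in NASH-CH (SE 0.115, adjusted p = 0.026), against a difference of 0.18 in NASH (adjusted p = 0.35). The call was lost without control rat 3 or 4 or NASH-CH rat 2 (adjusted p 0.0521 to 0.0725). C1s differed by 0.46 in NASH-CH (434 to 818.1 CPM against 321.6 to 503.1 in control, adjusted p = 0.0561), and C1r by 0.29 in both NASH and NASH-CH (adjusted p = 0.163 and 0.113). C1s passed with edgeR (adjusted p = 0.0449), DESeq2 (0.0224), library totals alone (0.0115) or no filter (0.0378). It also passed without control rat 2 (0.047) or NASH-CH rat 3 (0.0292). C1r passed with library totals alone (0.0326 in NASH, 0.00869 in NASH-CH), and in NASH with sample quality weights (0.0465).

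C4, cleaved by C1s and by MASP2, anchors that convertase to its target. In the rat it is encoded by neighbouring, nearly identical copies, so reads may be shared among the rows, and the split between C4a and C4b is uncertain. The C4b row was at 11.4 to 19.4 CPM in control (median 16.6), 19.4 to 32.8 in NASH (20.8) and 28.2 to 74.8 in NASH-CH rats (31.8). All NASH-CH rats lay above all controls, and NASH-CH rat 4 was the highest. C4b rose by 1.28 in NASH-CH (2.42-fold, SE 0.22, adjusted p = 0.000737), and by 1.07 without NASH-CH rat 4 (adjusted p = 0.000521). The NASH difference was 0.54 (adjusted p = 0.152), and NASH-CH and NASH differed by 0.73 (adjusted p = 0.0615).

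The C4a rows held most C4 counts. ENSRNOG00000000443 was at 556.3 to 1107 CPM in control (median 811.9), 844.5 to 1494 in NASH (979.8) and 759.2 to 2799 in NASH-CH rats (1162), and ENSRNOG00000047657 had between 48.7 and 247 CPM over the 18 rats. Their NASH-CH differences were 0.71 and 0.73 (adjusted p = 0.0662 and 0.0574), and the adjusted p ranged from 0.00561 to 0.119 and from 0.00529 to 0.103 over the other settings. With the C4 rows summed, a step chosen after seeing the data, the difference was 0.72 in NASH-CH (SE 0.256, adjusted p = 0.0607) and 0.39 in NASH (adjusted p = 0.38), so that total C4 was not called. The share of C4b in all C4 counts was 1.57 to 1.95% in control, 1.76 to 2.18% in NASH and 2.36 to 3.27% in NASH-CH livers, without overlap between NASH-CH and either other group. The mean difference from control was 0.817 percentage points (exact permutation p = 0.00216, the smallest that 6 against 6 can give, and 0.0552 adjusted over the 51 values tested in this way). The highest share was in NASH-CH rat 5, not in rat 4, whose C4b level was the highest.

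**Figure D4:**
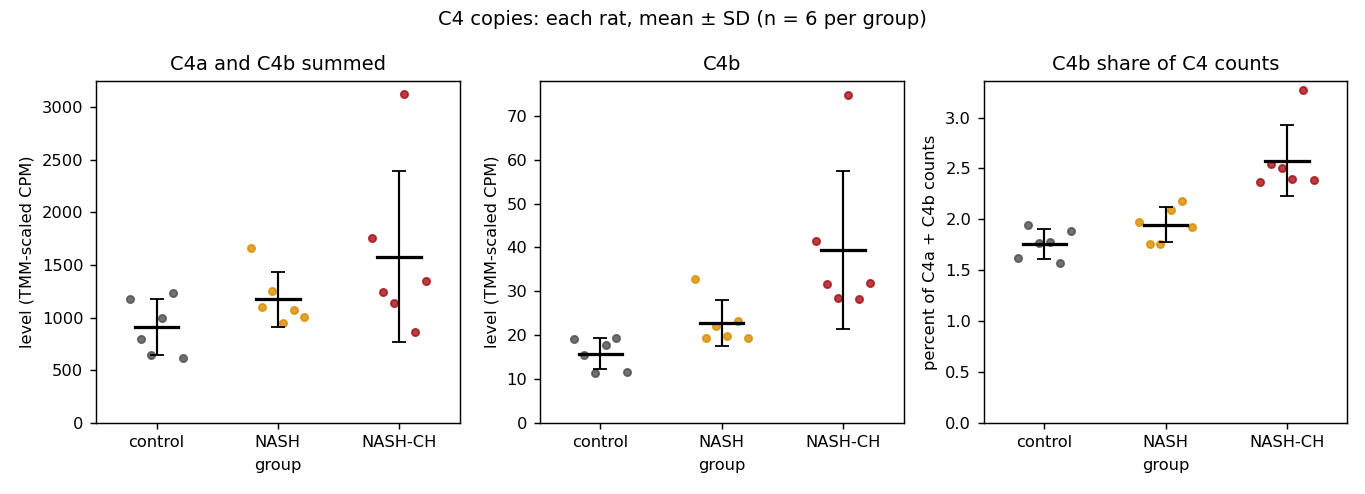
Summed C4a and C4b level, C4b level (both in CPM) and C4b share of C4 counts in percent for each rat, with the group mean ± SD (n = 6 per group). The summed level overlaps among the groups, whereas the NASH-CH rats sit at 2.36 to 3.27% in the share and above every rat of the other groups.

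The 250 bases before the C4a and C4b starts are shown for how alike the copies are. They come from RefSeq on GRCr8, on the plus strand, and capitals mark aligned bases that differ between them or have no partner.

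C4a (chr20:4010107-4010356, plus strand): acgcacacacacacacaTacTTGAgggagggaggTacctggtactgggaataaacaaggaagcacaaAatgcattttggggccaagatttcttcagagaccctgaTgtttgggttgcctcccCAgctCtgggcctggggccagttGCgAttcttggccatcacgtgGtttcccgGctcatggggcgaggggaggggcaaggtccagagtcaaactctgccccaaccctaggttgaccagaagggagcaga
C4b (chr20:4201729-4201978, plus strand): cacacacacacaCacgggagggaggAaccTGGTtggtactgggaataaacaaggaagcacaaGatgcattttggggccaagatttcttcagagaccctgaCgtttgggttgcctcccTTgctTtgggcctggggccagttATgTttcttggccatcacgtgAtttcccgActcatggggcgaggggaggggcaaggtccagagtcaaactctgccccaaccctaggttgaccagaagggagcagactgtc

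Over 249 aligned columns, 229 were identical (92%), 12 mismatched and 8 were gaps, and the longest identical stretch had 75 bases. Both hold the E-box CACGTG once, as does C8a among the 15 hepatocyte-made promoters on file, against 5.59% of all windows. GAGGAA occurred once in C4b and not in C4a.

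Of the lectin pathway, Mbl1, Masp1 and Masp2 had no call. Mbl1, a mannose-binding lectin, was at 104.1 to 184.2 CPM in control, 95.2 to 175.2 in NASH and 105.4 to 183.2 in NASH-CH rats, and Masp2, the protease that cleaves C4 and C2, at 145.7 to 195.1, 126.9 to 191.5 and 131.3 to 183.4 CPM. Masp1 was at 83.4 to 107.1 CPM in control, 96.9 to 110.9 in NASH and 40.3 to 119.9 in NASH-CH rats, and the lowest of these was NASH-CH rat 5, which also had the lowest hepatocyte marker sum. Mbl2 was at the detection limit, with 0 to 6 counts in a control library, 0 to 15 in a NASH library (up to 0.514 CPM) and 2 to 13 in a NASH-CH library.

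C3, on which all pathways meet, was at 7779 to 12998 CPM in control (median 9216), 8401 to 13167 in NASH (11224) and 11222 to 18472 in NASH-CH rats (12218). The ranges overlapped, with NASH-CH rat 4 the highest. The difference was 0.42 in NASH-CH (SE 0.1645, adjusted p = 0.0843), or 0.32 without NASH-CH rat 4 (adjusted p = 0.179), and 0.19 in NASH (adjusted p = 0.517), so neither passed. In NASH-CH it passed with DESeq2 (adjusted p = 0.0396), library totals alone (0.0017) and sample quality weights (0.0433). Factor B, the protease of the alternative C3 convertase, was on 2 rows of the symbol Cfb with 1006 to 1849 CPM (ENSRNOG00000051158) and 17.7 to 33.5 CPM (ENSRNOG00000000419) over the 18 rats. Summed, they differed by 0.20 in NASH-CH (adjusted p = 0.415) and 0.19 in NASH (adjusted p = 0.512).

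Factor D, or adipsin, cleaves factor B and is known as a product of fat cells. Cfd was at 4.86 to 5.80 CPM in control (median 5.24), 5.28 to 6.86 in NASH (5.88) and 2.73 to 5.27 in NASH-CH rats (4.23). Every NASH-CH rat lay below every NASH rat, while the control range overlapped both. Cfd was lower in NASH-CH than in NASH by 0.53 on the log2 scale (log2 difference -0.53, SE 0.125, adjusted p = 0.0196), and its difference from control was -0.37 in NASH-CH (adjusted p = 0.0633) and 0.17 in NASH (adjusted p = 0.513). The call between NASH-CH and NASH was lost without NASH rat 1 (adjusted p = 0.0504), with library totals alone as the scale (0.086) and with those groups fitted alone. None of 4 adipocyte markers had enough counts to be tested, their sum was at most 0.909 CPM in any rat, and Plin1, Lep and Retn were at a median of 0 over the 18 rats.

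The terminal pathway starts with C5, whose cleavage releases the leukocyte attractant C5a, and ends in the membrane attack complex of C5b with C6, C7, C8 and C9. C5 was at 439 to 583.5 CPM in control (median 510.8), 499.8 to 640.4 in NASH (505.3) and 528.2 to 1094 in NASH-CH rats (702.5). 5 of the 6 NASH-CH rats lay above every control, and NASH and control rats had similar medians. C5 rose by 0.49 in NASH-CH (SE 0.146, adjusted p = 0.0271), against a difference of 0.05 in NASH (adjusted p = 0.868) that turned to -0.0064 without NASH rat 1. The call was lost without control rat 3 or 4 (adjusted p = 0.0696 and 0.0688) or NASH-CH rat 4 (log2 difference 0.37, adjusted p = 0.0556).

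C7, which lets the growing complex bind a membrane, had the largest change of all complement rows. It was at 3.02 to 8.48 CPM in control (median 8.08), 7.44 to 12.1 in NASH (11.53) and 19.0 to 67.5 in NASH-CH rats (28.2). All NASH-CH rats lay above all other rats, NASH-CH rats 5 and 2 were the highest, and control rat 4 was the lowest of the controls. C7 rose 4.59-fold in NASH-CH against control (log2 2.20, SE 0.30, adjusted p = 7.547e-05) and 2.92-fold against NASH (log2 1.55, SE 0.28, adjusted p = 0.00223), while the NASH difference from control was 0.65 (SE 0.31, adjusted p = 0.229). Without NASH-CH rat 5 the change from control was 1.99 (adjusted p = 5.398e-05).

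C7 is also made by fibroblasts and other mesenchymal cells. Of 8 tested markers of stellate cells and fibroblasts, 3 were higher in NASH-CH than in control (Col1a1, Des and Rgs5) and 1 lower (Lrat). Their sum was 278 to 370 CPM in control, 227 to 309 in NASH and 279 to 434 in NASH-CH rats. In NASH-CH rats 1 to 6, C7 was at 19.0, 47.0, 29.1, 20.2, 67.5 and 27.3 CPM beside marker sums of 286, 430, 359, 279, 434 and 396 CPM. Rats 5 and 2 were the highest in both, as they were in the macrophage marker Lyz2 (88.2 and 36.6 CPM). Col3a1, not called against control, made up most of the sum, at 216 to 330 CPM in NASH-CH rats. Dcn and Rgs5 also ranked rats 5 and 2 highest. Des, Col1a1 and Pdgfrb ranked rat 6 above rat 2, Acta2 was highest in rat 6, and Lrat was lowest in rat 5. The marker sum of NASH-CH rats overlapped with control, whereas the single markers Des (3.25 to 4.39 against 1.93 to 3.02 CPM) and Rgs5 (3.73 to 8.35 against 1.06 to 1.72 CPM) did not, nor did C7. Lrat did not overlap either, but lay below control (14.4 to 26.2 against 32.3 to 47.5 CPM). Rgs5 was above every control in NASH rats as well (3.34 to 5.48 CPM), where C7 was not called. The part of these cells in the C7 level was not tested.

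The other terminal genes, all of which supply parts of the pore, had no call. C9 was at 576.2 to 886.7 CPM in control (median 751.3), 671.9 to 952.8 in NASH (824.2) and 657.8 to 1633 in NASH-CH rats (870.2), with NASH-CH rat 4 the highest and the groups overlapping. C6 was at 71.5 to 199.5 CPM over the 18 rats, C8a at 546.5 to 1146 and C8g at 58.45 to 131. C8b varied widely within control and NASH, at 81.4 to 428.3 and 95.5 to 387.1 CPM with a coefficient of variation of 48% and 48.6%, and less within NASH-CH, at 203.4 to 379 CPM with 23.9%. Control rat 2 and NASH rats 1 and 2 held the lowest C8b levels, at 81.4, 107.2 and 95.5 CPM, while the other 15 rats had at least 199.87 CPM. The low rats thus stood in control and NASH and not in NASH-CH. In C8a, whose product joins that of C8b, the same rats had 778.9, 889.1 and 741.4 CPM, inside the range of the others.

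Clusterin, encoded by Clu, is a plasma chaperone that keeps the terminal complex out of membranes. It was at 458.2 to 603.9 CPM in control (median 587), 740 to 912.5 in NASH (819.3) and 842.9 to 999.6 in NASH-CH rats (932.3). All rats of both disease groups lay above all controls, while NASH and NASH-CH overlapped. Clu rose 1.48-fold in NASH (log2 0.57, SE 0.0921, adjusted p = 0.00528) and 1.63-fold in NASH-CH (log2 0.71, SE 0.0955, adjusted p = 5.949e-05), and both calls were kept in all 18 fits that left out 1 rat. NASH-CH and NASH differed by 0.14 (adjusted p = 0.489).

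C1 inhibitor, encoded by Serping1, blocks C1r, C1s and the MASP proteases. Its level was 175.7 to 299.6 CPM in control (median 250), 254.8 to 383.5 in NASH (310.4) and 234.6 to 460 in NASH-CH rats (352.2). The ranges overlapped. Serping1 rose by 0.50 in NASH-CH (SE 0.157, adjusted p = 0.0366), against 0.37 in NASH (adjusted p = 0.156). Among the 9 complement rows called in NASH-CH it kept its call in the fewest fits, since it was lost without control rat 1, 3 or 4 or NASH-CH rat 1, 2, 3 or 4 (adjusted p 0.0551 to 0.0951).

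The other soluble regulators had no call. Cfi, the protease that inactivates C3 and C4 fragments, was at 528.9 to 601.3 CPM in control, 519.5 to 734.6 in NASH and 543 to 929.5 in NASH-CH rats (differences 0.25 and 0.31, the latter with adjusted p = 0.0964). In NASH-CH it passed with DESeq2 (0.0419), library totals alone (0.000897) or sample quality weights (0.0239), and without NASH-CH rat 5 (0.0494) or 6 (0.0498). In NASH it passed with library totals alone (0.0138). Vitronectin (Vtn), which like clusterin binds the terminal complex, was at 2146 to 3153, 2083 to 3452 and 1537 to 3660 CPM in the same order, and differed from control by 0.13 (NASH) and 0.04 (NASH-CH), the latter with either sign when 1 rat was left out. The ratio of Clu to Vtn counts was higher by 0.43 in NASH and 0.67 in NASH-CH on the log2 scale, but did not pass adjustment (exact permutation p = 0.00866 and 0.00649, adjusted 0.0631 and 0.0552). C4b-binding protein is built from the products of C4bpa, at 401 to 971.5 CPM over the 18 rats, and C4bpb. C4bpb was at 201.7 to 237.3 CPM in control, 175.2 to 226.7 in NASH and 131.5 to 337.7 in NASH-CH rats. NASH-CH rat 4 was the highest (next highest 197.7 CPM), and every other NASH-CH rat lay below every control. C4bpb was among the rows called against control in the fit without NASH-CH rat 4. The ratio of C4bpb to C4bpa counts differed by -0.29 between NASH-CH and control (exact permutation p = 0.013, adjusted 0.0828).

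The membrane regulators protect host cells. Cd59, which blocks the last step of the pore, was at 31.1 to 42.2 CPM in control, 26.3 to 41.1 in NASH and 24.6 to 38.2 in NASH-CH rats, with differences of -0.20 (adjusted p = 0.357, turning to 0.026 with library totals alone) and -0.28 (adjusted p = 0.127). Cd55, which dismantles C3 convertases, had 1 to 4 counts in a control library, 2 to 7 in a NASH library and 4 to 21 in a NASH-CH library and was not tested.

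The receptors for the small fragments C3a and C5a are carried mainly by myeloid cells, and all were at low levels. C3ar1 was at 0.359 to 0.843 CPM in control (median 0.555), 0.294 to 0.822 in NASH (0.692) and 0.675 to 1.13 in NASH-CH rats (0.702), on 6 to 18 counts in a control library and 31 to 87 in a NASH-CH library. C5ar1 was at 0.825 to 1.39 CPM in control (1.18), 0.727 to 1.39 in NASH (1.06) and 1.08 to 1.92 in NASH-CH rats (1.35). The groups overlapped for both genes, with NASH-CH rat 5 the highest. The NASH-CH differences from control were 0.55 for C3ar1 (adjusted p = 0.162) and 0.29 for C5ar1 (adjusted p = 0.31). C5ar2, the second C5a receptor, was at 1.33 to 4.07 CPM in control, 2.496 to 8.60 in NASH and 1.94 to 7.31 in NASH-CH rats, so that it differed from control by 0.84 and 0.76 (adjusted p = 0.327 and 0.261). No difference in a receptor was detectable at this depth and spread.

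**Figure D5:**
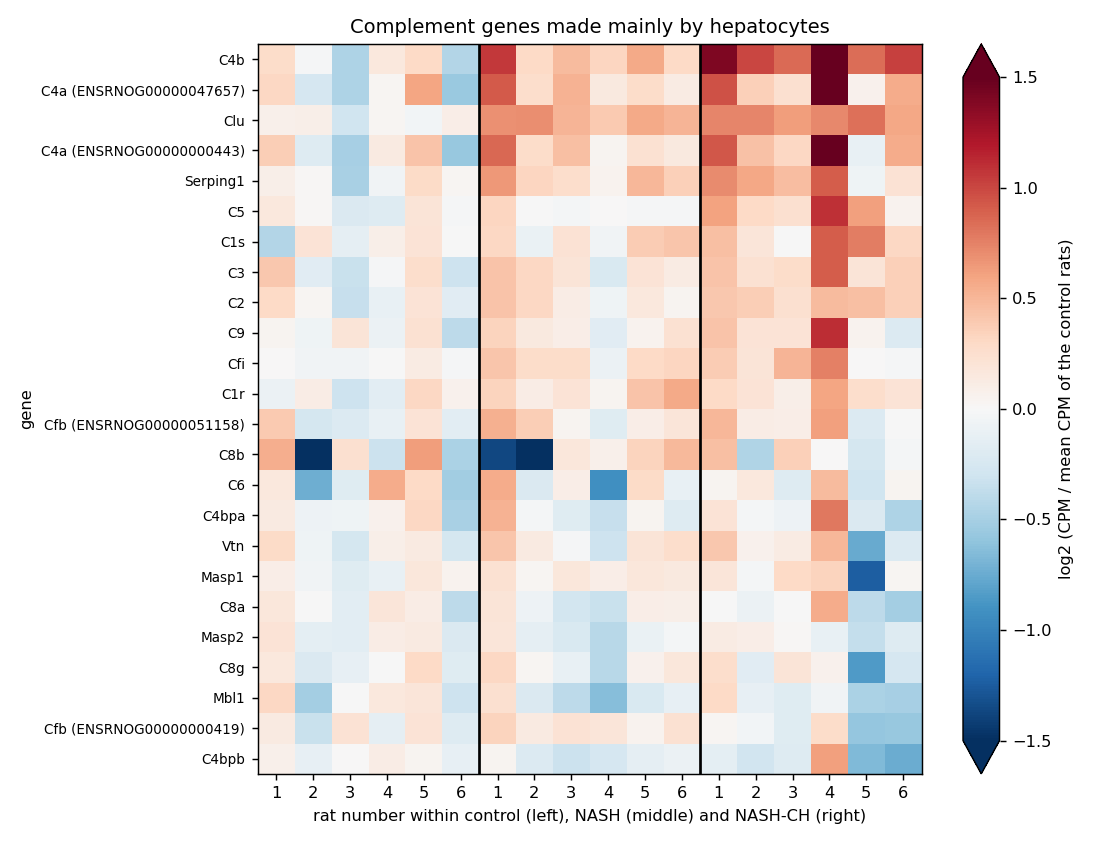
Log2 of the CPM of each rat over the control mean, in colour, for the 24 tested rows of hepatocyte-made complement genes (rows) in the 18 rats (columns, by group). NASH-CH rat 4 is the highest of its group in 19 of the 24 rows, with C4b at 74.8 CPM and C9 at 1633 CPM, and the Clu row is above the control mean in all 12 NASH and NASH-CH rats.

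Rats differed along the whole set as well as by group. Of the 34 tested rows, control rat 5 was the highest of its group in 22, NASH rat 1 in 21 and NASH-CH rat 4 in 19, all of the latter rows of hepatocyte-made proteins. At the other end, NASH rat 4 was the lowest of its group in 18 rows, and control rat 6 and NASH-CH rat 5 each in 12. Complement rows thus often ranked the same rats highest or lowest within a group, and the rows are not independent of one another. Control rat 5 and NASH rat 1 had the lowest trimmed-mean factors of their groups (0.7897 and 0.9834). NASH rat 4, control rat 6 and NASH-CH rat 5 had the highest (1.1455, 1.0267 and 1.2825), while NASH-CH rat 4 was at 1.0123. The part of the scaling in these ranks was not tested.

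Beyond the 34 symbols, a list of 35 further complement genes had 23 tested members, of which 2 were called in NASH (8.7%, against 3.12% of all genes) and 8 in NASH-CH (34.8%, against 17%). A further comparison, of NASH-CH with NASH, called 2 of them (8.7%, against 4.2%). These were Colec12 (log2 0.93, adjusted p = 0.0242), a call lost without NASH rat 1, 3 or 5 (adjusted p up to 0.0688), and Colec11 (log2 -0.54, adjusted p = 0.0254), lost without NASH rat 3 or 6 (adjusted p up to 0.0696). Cr1l, a rodent membrane regulator of C3 and C4, was at 21.1 to 27.0 CPM in control, 33.5 to 44.9 in NASH and 28.9 to 37.6 in NASH-CH rats, without overlap with control. It rose by 0.69 in NASH (SE 0.0931, adjusted p = 0.00265) and by 0.46 in NASH-CH (SE 0.0953, adjusted p = 0.00312). Fcna, the lectin pathway's ficolin A, which Kupffer cells make, was at 12.01 to 19.2, 8.35 to 11.46 and 5.47 to 8.77 CPM and lay below every control in both disease groups. Fcna fell by 0.65 in NASH (adjusted p = 0.0216) and by 1.16 in NASH-CH (adjusted p = 1.587e-05), and the NASH call was lost without control rat 3, 4 or 5 or NASH rat 4 or 5 (adjusted p 0.0528 to 0.0573) and with library totals alone (0.051).

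The collectins, lectins that work with the MASP proteases or as scavenger receptors, were called in NASH-CH in both directions. Colec12, a scavenger receptor of vascular and stromal cells, was at 1.18 to 2.18 CPM in control and 3.12 to 8.43 in NASH-CH rats (log2 1.64, adjusted p = 0.000505), with NASH-CH rat 5 the highest. Colec11 was at 35.4 to 45.7 CPM in control and 17.8 to 35.7 in NASH-CH rats (log2 -0.50, adjusted p = 0.0145), or -0.26 with library totals alone as the scale (adjusted p = 0.119), and Colec10 differed by -0.72 (adjusted p = 0.0183). Crp, a pentraxin that binds C1q, rose by 0.60 (adjusted p = 0.00626). Vsig4, the complement receptor of Kupffer cells and one of the macrophage markers above, fell by 0.56 (adjusted p = 0.047), and Calr, a chaperone also known to bind C1q, fell by 0.60 (adjusted p = 0.0449). Both calls were lost with library totals alone (adjusted p = 0.155 for Vsig4 and 0.181 for Calr). Of the 18 fits that left out 1 rat, Vsig4 kept its call only in those without control rat 2 or 6, NASH rat 5 or NASH-CH rat 1, 2 or 4 (adjusted p up to 0.113 in the others), and Calr only in those without control rat 2 or 6, NASH rat 3, 5 or 6 or NASH-CH rat 4 or 5 (adjusted p up to 0.109).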

How the data were processed

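Libraries of polyadenylated whole-liver RNA, 1 per rat and 6 per group, were made with a stranded kit. Per the labels and the study's methods, the authors trimmed and aligned reads with STAR to Rnor_6.0 and estimated expected counts per gene with RSEM (Ensembl annotation, tool versions not given in the sources used here). RSEM divides reads among near-identical copies. Deposited expected counts were rounded. Groups came from the sample labels. Replicates were separate rats, with no libraries alike within sampling noise (the closest pair had a chi-square of 29.8 per degree of freedom). In R 4.3.3, edgeR 4.0.16 filtered genes (filterByExpr, 12904 of 32623 kept) and scaled libraries (TMM), and limma 3.58.1 (voom, moderated tests over group means, all 18 rats in 1 fit) tested all genes with Benjamini-Hochberg adjustment at 0.05. Ratios and shares were tested by two-sided exact permutation, 51 values adjusted together. Alternatives tried were DESeq2 1.42.0, the quasi-likelihood test of edgeR, other scalings, filters, sample weights, thinned NASH-CH counts, 2 groups alone, a replicate block and leaving out each rat. The fit was tested on simulated data with 200 genes changed by 1.5 (log2) in NASH-CH. Against control, limma recovered 187 of them with 8 false calls, edgeR 190 with 7 and DESeq2 193 with 25. All 34 symbols are named, with medians for called genes and for 9 genes set by name, and other complement genes where called. The gene list, its source groups and the marker lists were chosen with earlier results of these data known. The 197 table rows without a symbol could not be matched to a list. Promoters were aligned with Biopython 1.88.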

Additional observations from a re-analysis of the deposited data

Results flagged for a closer look

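A rat's level stood apart from the other 5 of its group (gap to the nearest rat, relative to the group's range, above Dixon's critical value for 6 samples) in 15 of 102 groups of complement levels, where chance flags about 1 in 20. In NASH-CH rat 4, C3 was at 18470 CPM (next highest 13150), C4b at 74.79 (41.47), C4a (ENSRNOG00000047657) at 247 (139.2), C9 at 1633 (1021) and C4bpb at 337.7 (197.7). In NASH rat 1, C4b was at 32.85 CPM (23.32), C5 at 640.4 (513) and C4bpa at 808.9 (577.2). In NASH rat 4, C5ar2 was at 8.597 CPM (4.281) and Cfi was low at 519.5 (next lowest 666.4). NASH-CH rat 5 was low in Masp1, at 40.34 CPM (93.11). In control rat 5, C1qb was at 53.01 CPM (37.96) and Cfi at 601.3 (551.4). Control rat 4 was low in C7, at 3.017 CPM (7.403), and control rat 3 was low in Clu, at 458.2 (549.9). These groups are not independent, since 1 rat accounts for several of them, and no cause was tested.

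The effects of the models differed for 2 genes in limma's direct comparison of NASH-CH with NASH. The Cfd effect against control was lower in NASH-CH than in NASH (log2 difference -0.53, adjusted p = 0.0196), and the C7 effect was higher (log2 difference 1.55, adjusted p = 0.00223).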

How the results depend on the processing

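The number of complement rows called in NASH against control was 1 and became 8 with library size only as the scale (6.7% of all genes in either direction), all higher, and 4 with sample quality weights (11.7%). With library size only, the median log2 difference of all genes in NASH was 0.23, and their calls were not split by direction. In NASH-CH against control it was 9 and became 15 with DESeq2 (22% of all genes), 14 with library size only (25.3%), 14 with sample quality weights (18.7%) and 5 with the 2 groups fitted alone (10.9%), which lost C1qb, C1qc, C5 and Serping1. Between NASH-CH and NASH it was 2 and became 4 with DESeq2 (7.35% of all genes), 4 with sample quality weights (6%) and 1 with the 2 groups fitted alone (2.67%). Leaving out 1 rat gave 1 call in NASH (0.983 to 7.55% of all genes) and 2 to 3 between the models (2.66 to 4.55%). In NASH-CH it gave 4 to 12 calls (11.7 to 18.5% of all genes). The fewest were 4 without control rat 3 and 5 without control rat 4, where 12.2% of all genes were called in each fit. Of the 73 log2 differences refitted, 5 changed sign: in NASH against control C1qa to 0.046, C5ar1 to 0.029 and Cd59 to 0.026 with library size only and C5 to -0.0064 without NASH rat 1 (-0.0064 to 0.092 over all rats left out), and in NASH-CH Vtn (-0.055 to 0.189, below 0 without control rat 3 or 6 or NASH-CH rat 1 or 4). The cause was not tested.

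Replicate numbers gave no clear sign of pairing, with a mean correlation of same-numbered deviations of 0.052, 0.073 and 0.015 in the 3 comparisons. Single pairs ranged from -0.119 to 0.171. The study housed rats in shared cages, and an effect of cage was not tested. With a replicate block the calls numbered 1 in NASH (3.44% of all genes), 10 in NASH-CH (16.2%) and 3 between the models (4.18%). Serping1 was then lost in NASH-CH (adjusted p = 0.05). These 73 differences cover 23 complement rows, those described by their log2 differences, and the further complement genes where called; 1239 of their 1314 values in fits without 1 rat and 724 of 793 under other settings kept direction and call. The remaining complement rows were refitted only as part of the counts. Depth limits Mbl2, Cd55 and the receptors.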

Other observations

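The rows that share the symbol Cfb did not keep a fixed ratio. ENSRNOG00000000419 held on average 2.18% of the Cfb counts of control livers, 2.20% of those of NASH and 1.69% of those of NASH-CH livers (NASH-CH against control, exact permutation p = 0.00433, adjusted 0.0552 over 51 values). Within the C1q chains, the log2 ratio of C1qc to C1qa counts was lower by 0.12 in NASH than in control (mean -0.16 against -0.04, exact permutation p = 0.00433, adjusted 0.0552), whereas the log2 ratio of C8b to C8a did not separate the groups (exact permutation p = 0.924 in NASH and 0.571 in NASH-CH).

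The letters GTTAAT, part of the palindrome bound by the hepatocyte factor HNF1, were found on either strand in 4 of 15 promoter windows of hepatocyte-made complement genes (C5, C8a, C4bpa and C4bpb), in 1 of 5 of myeloid ones (C5ar2) and in 6.45% of all 33469 windows. A match is a description of letters and not a measured site.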
